A study of Mus musculus with 8 samples.

Results

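Iron enters T cells mainly as transferrin bound to the transferrin receptor, is stored inside ferritin, and is monitored by RNA-binding proteins and a ubiquitin ligase adaptor. This account covers 10 mouse genes chosen by name for those roles, of 19826 genes listed in an RNA-seq table of regulatory T cells (Treg). They are the uptake genes Tfrc, Slc11a2 and Steap3, the storage genes Fth1, Ftl1, Ncoa4 and Pcbp1, and the sensing genes Ireb2, Aco1 and Fbxl5. All 10 were in the table, and 9 of them were high enough to test.

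The cells were CD4+ YFP+ Treg of C57BL/6 mice, sorted from spleen and peripheral lymph nodes with no treatment, and 4 libraries stood in each of 2 groups. The libraries labelled Pdpk1 KO (labelled KO below) came from Foxp3 YFP-Cre/+ Pdpk1 FL/FL mice, and the WT libraries from Foxp3 YFP-Cre/+ Pdpk1 +/+ mice. Both groups therefore carried 1 Foxp3 allele that makes YFP and Cre, so that Cre is made only where Foxp3 is expressed and Treg without Cre share the animal. Pdpk1 encodes the kinase PDK1, which activates AKT downstream of PI3K. The labels give neither the age of the mice nor whether a library is 1 mouse, and the p-values below reflect only how far libraries of a group differ, which may in part be technical.

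Values are normalized counts, which are gene read counts divided by a size factor for each library. Log2 changes are differences in mean log2(normalized count + 1), labelled KO minus WT, and understate the change of low genes. Each was tested with limma over the 13847 genes with a normalized count of at least 10 in at least 4 libraries, and a Benjamini-Hochberg adjusted p under 0.05 counts as past the threshold.

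Depth was 17448095 to 26299577 recovered reads a library. Pdpk1 had 2506, 1900, 1872 and 1656 normalized counts in the labelled KO libraries 1 to 4, against 2600, 2374, 1995 and 1923 in WT libraries 1 to 4 (log2 change -0.17, limma adjusted p = 0.491). Which exons are deleted is not given in the sources used here. A count over the whole gene therefore does not check the labels. Foxp3, which defines Treg, averaged 5355 ± 743 in labelled KO and 5086 ± 740 in WT libraries (SD, n = 4 each; log2 change 0.08, limma adjusted p = 0.768). Of 6 Treg markers, Foxp3 included, all 6 were tested, and 1 was higher and 1 lower in labelled KO libraries. Summed, they came to between 54351 and 59663 in labelled KO and between 56729 and 59090 in WT libraries. Of 19 macrophage markers 16 were tested, 8 were higher in labelled KO and only Axl was lower. Summed without Axl they came to between 1544 and 4643 in labelled KO and between 270.6 and 1355 in WT libraries. Of all 19, Axl included, 11 were above 0 in every library, whereas Vsig4 was at 0 in 3 labelled KO and 3 WT libraries. B cell markers summed to between 162.9 and 306.8 in labelled KO and between 443 and 564.7 in WT libraries, and 2 of the 3 tested were lower in labelled KO. Red cell markers were low in both groups, at 1.71 to 294.1 in labelled KO and 6.15 to 143.6 in WT libraries. In bulk RNA, fewer cells of a type and less RNA per cell cannot be told apart.

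As background, transferrin receptor is carried into endosomes, where STEAP3 reduces the released iron and DMT1, the product of Slc11a2, moves it to the cytosol. When iron is scarce, the iron regulatory proteins IRP1 (Aco1) and IRP2 (Ireb2) bind RNA hairpins called iron-responsive elements: binding in the 5′ untranslated region of ferritin mRNA blocks its translation, and binding in the 3′ untranslated region of Tfrc mRNA protects it from decay. When iron is plentiful, FBXL5 targets IRP2 for destruction and IRP1 takes up an iron-sulfur cluster and works as an aconitase. T cells that grow and divide are known for a high demand for transferrin-bound iron.

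The hairpins are shown because they are the sequence that links the uptake, storage and sensing genes. GENCODE M21 transcripts on GRCm38 were searched on the transcript's sense strand for a C, 5 bases, the loop CAGTGN and 5 bases that pair with the first 5 by AU, GC or GU. Each line gives the 30 bases around a match, 5′ to 3′, with the 6-base loop in capitals.
Fth1 5′ UTR, chr19:9982732-9982761, plus strand: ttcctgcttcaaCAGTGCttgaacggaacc
Ftl1 5′ UTR, chr7:45459778-45459807, minus strand: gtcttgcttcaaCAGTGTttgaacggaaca
Tfrc 3′ UTR site 1, chr16:32631219-32631248, plus strand: aattatcggaagCAGTGCcttccataatta
Tfrc 3′ UTR site 2, chr16:32631598-32631627, plus strand: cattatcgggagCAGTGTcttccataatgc
Tfrc 3′ UTR site 3, chr16:32631663-32631692, plus strand: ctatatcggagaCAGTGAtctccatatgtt
Tfrc 3′ UTR site 4, chr16:32631710-32631739, plus strand: aattatcgggaaCAGTGTttcccataattt

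The Fth1 and Ftl1 windows are identical at 26 of 30 bases. A match occurred in the 5′ UTR of 0.123% and in the 3′ UTR of 0.58% of 21899 coding genes, and Tfrc was the only gene among them with 3 or more. No match was found in the other 7 of the 10 genes, which says only that the search did not find this exact pattern. A hairpin whose stem holds a mismatch or an extra unpaired base would be missed, even with the same loop. The search therefore does not show that any of these 7, Slc11a2 included, lacks an iron-responsive element. Nor does it show that Tfrc has only the sites listed. Of 19 tested genes with a match in the 5′ UTR, 1 was higher and 1 lower in labelled KO libraries (median log2 change -0.01), and of 90 with a match in the 3′ UTR, 3 were higher and 4 lower (median -0.01), beside a median of -0.01 over all genes tested, of which 9.47% passed the threshold in either direction.

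None of the 9 tested uptake, storage and sensing genes differed between labelled KO and WT libraries past the threshold, and for none did the 2 groups separate. Limma called 0 of 9 (0 also at an unadjusted p under 0.05), against 9.47% of all genes tested that passed the threshold and 23.0% at an unadjusted p under 0.05. The rises among all genes were 4.41% and the falls 5.06%. On the recovered reads edgeR called 0 of 9, against 9.06% of all genes, and DESeq2 called 0 of 9, against 12.7%. Groups did not overlap for 0 of the 10 genes, against 15.3% of all genes tested. The log2 changes of the 9 ran between -0.14 and 0.18, with 5 above and 4 below 0. Their median absolute change was 0.10, against 0.23 over all genes tested, and their median SD between libraries of 1 group was 0.16, against 0.26 over all genes, both on the log2 scale. These medians do not compare genes of like level. Each of the 9 averaged at least 669 normalized counts in each group, whereas genes at 10 in 4 libraries were also tested. In the limma fit without a covariate, all 9 of the 95% intervals lay within 0.5 log2 units of 0, which is 1.41-fold in either direction. That bound is a description and not a test, and the widest interval, that of Tfrc, ran from -0.45 to 0.48. Changes within these intervals could not be told from no change with 4 libraries a group. The adjusted threshold is stricter than a 95% interval, so somewhat larger changes could also go uncalled. With the mean level of the macrophage markers as a covariate, none of the 9 passed either, but the log2 changes moved, to 0.41 for Tfrc, -0.36 for Fth1, -0.22 for Ftl1, 0.31 for Ireb2, 0.24 for Ncoa4 and 0.01 for Pcbp1.

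**Figure D1:**
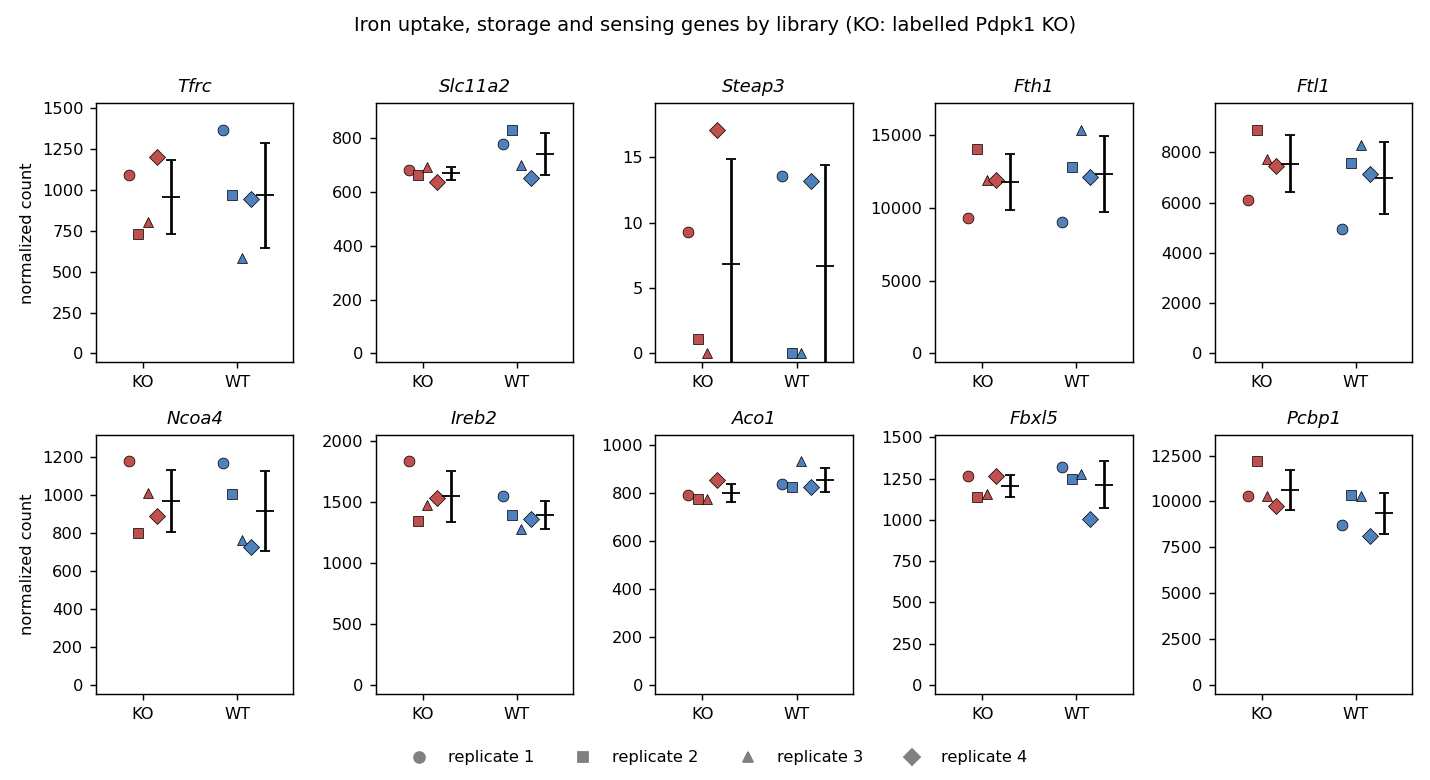
Normalized counts of the 10 genes in each library, labelled KO left and WT right, with a marker shape for each replicate number and a bar for the mean ± SD (n = 4 each, linear axes from 0). The labelled KO and WT values overlap in all 10 panels, and Steap3 is near 0 throughout.

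Among the uptake genes, Tfrc (chr16:32608920-32632794), the transferrin receptor, varied widely within both groups. Tfrc had 1089, 728, 803 and 1199 normalized counts in labelled KO libraries 1 to 4, against 1365, 969, 582 and 945 in WT libraries 1 to 4. The highest and the lowest value were both WT, so the WT range enclosed the labelled KO range. The means were 955 ± 225 in labelled KO and 965 ± 320 in WT libraries (SD, n = 4 each), and the log2 change was 0.02 (95% interval -0.45 to 0.48, limma adjusted p = 0.976). The sign of that change was not stable, at -0.01 by both edgeR and DESeq2 and by upper quartile scaling, and the interval is the widest of the 9.

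Myc encodes a transcription factor for which Tfrc is a known target in other cells, and it was named here after its values were seen. Myc had 9819, 8965, 8613 and 7838 normalized counts in labelled KO libraries, against 3782, 3910, 3549 and 3772 in WT libraries. The groups did not overlap, and Myc rose by 1.23 on the log2 scale (limma adjusted p = 1.27e-06), while Tfrc in the same libraries showed no difference past its spread.

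Slc11a2 (chr15:100387898-100425072) encodes DMT1, the transporter that moves ferrous iron out of endosomes. Its normalized counts were 681, 664, 694 and 638 in labelled KO libraries, against 780, 831, 701 and 653 in WT libraries. WT libraries 1, 2 and 3 were above every labelled KO library, but WT library 4 lay within the labelled KO range. The log2 change was -0.14 (95% interval -0.39 to 0.11, limma adjusted p = 0.522), and the spread was 3.57% of the mean in labelled KO and 10.7% in WT libraries.

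Steap3 (chr1:120190757-120272705), the endosomal ferrireductase known from red cell precursors, was barely detected. Its 58 reads fell as 10, 1, 0 and 20 in labelled KO libraries and 12, 0, 0 and 15 in WT libraries, with normalized counts of at most 17.1 and 13.5. Both groups held libraries at 0 and libraries above 9 normalized counts. Steap3 did not reach the minimum for testing, and a count of 0 allows up to 3 reads, equal to 2.56 to 3.38 normalized counts (counting error alone).

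Among the storage genes, Fth1, Ftl1 and Pcbp1 had the highest counts of the 10. Fth1 (chr19:9980598-9985098) encodes the ferritin heavy chain, the subunit that oxidizes iron as it enters the shell. Fth1 had 9311, 14058, 11931 and 11897 normalized counts in labelled KO libraries, against 9012, 12846, 15367 and 12133 in WT libraries. Library 1 was the lowest of both groups, and WT library 3 was the highest of all. The log2 change of Fth1 was -0.05 (95% interval -0.38 to 0.27, limma adjusted p = 0.881).

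Ftl1 (chr7:45457944-45459884), the ferritin light chain that helps build the iron core, had 6120, 8887, 7733 and 7455 normalized counts in labelled KO libraries. WT libraries had 4949, 7578, 8288 and 7117. Library 1 was again the lowest of both groups, and the groups overlapped over most of their range. The log2 change of Ftl1 was 0.13 (95% interval -0.19 to 0.44, limma adjusted p = 0.676).

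Ncoa4 (chr14:32159865-32179855) encodes the cargo receptor that takes ferritin to the lysosome to release its iron. Ncoa4 had 1177, 799, 1013 and 892 normalized counts in labelled KO libraries, against 1170, 1008, 761 and 727 in WT libraries. The ranges nearly coincided, and the log2 change was 0.10 (95% interval -0.25 to 0.44, limma adjusted p = 0.788).

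Pcbp1 (chr6:86524492-86526321), an RNA-binding protein that also serves as the chaperone handing iron to ferritin, had the largest change of the 9. Its normalized counts were 10275, 12176, 10267 and 9736 in labelled KO libraries, against 8707, 10339, 10279 and 8115 in WT libraries. Labelled KO library 2 was the highest and WT libraries 1 and 4 were the lowest, but WT libraries 2 and 3 lay among the labelled KO values. The means were 10614 ± 1072 in labelled KO and 9360 ± 1122 in WT libraries (SD, n = 4 each), and the log2 change was 0.18 (95% interval -0.05 to 0.41, limma adjusted p = 0.343).

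Reads of close copies limit the precision of 3 storage genes, since the counting of reads shared between copies is not given in the sources used here. The processed pseudogenes Ftl1-ps1, Fth-ps2 and Ftl2-ps had at most 107.7, 23.7 and 4.49 normalized counts in any library, far below Ftl1 and Fth1. Pcbp1 has close relatives in the Pcbp family and overlaps an antisense gene, 1600020E01Rik, with 153.7 to 334.5 normalized counts. Without a stated strand setting, reads of Pcbp1 and of that gene cannot be told apart where they overlap.

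Among the sensing genes, Ireb2 (chr9:54863789-54912530) encodes IRP2. Ireb2 had 1835, 1346, 1481 and 1532 normalized counts in labelled KO libraries, against 1552, 1396, 1278 and 1364 in WT libraries. Labelled KO library 1 was the highest, and the other labelled KO libraries lay within the WT range. The log2 change of Ireb2 was 0.14 (95% interval -0.10 to 0.38, limma adjusted p = 0.498).

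Aco1 (chr4:40143081-40198338), which encodes IRP1, was among the steadiest of the 10. Its normalized counts were 792, 773, 775 and 851 in labelled KO libraries, against 834, 822, 930 and 824 in WT libraries. WT library 3 stood above the rest, and labelled KO library 4 lay above the other 3 WT libraries. Aco1 showed a log2 change of -0.10 (95% interval -0.32 to 0.13, limma adjusted p = 0.654).

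Fbxl5 (chr5:43744615-43821638) encodes the iron-binding adaptor that marks IRP2 for destruction. Its normalized counts were 1266, 1139, 1159 and 1266 in labelled KO libraries, against 1319, 1246, 1282 and 1005 in WT libraries. WT library 4 was the lowest of all and the other WT libraries overlapped the upper labelled KO values. The means were 1207 ± 68.2 in labelled KO and 1213 ± 142 in WT libraries (SD, n = 4 each), with a 95% interval of -0.23 to 0.23 for the log2 change (limma adjusted p = 0.999).

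**Figure D2:**
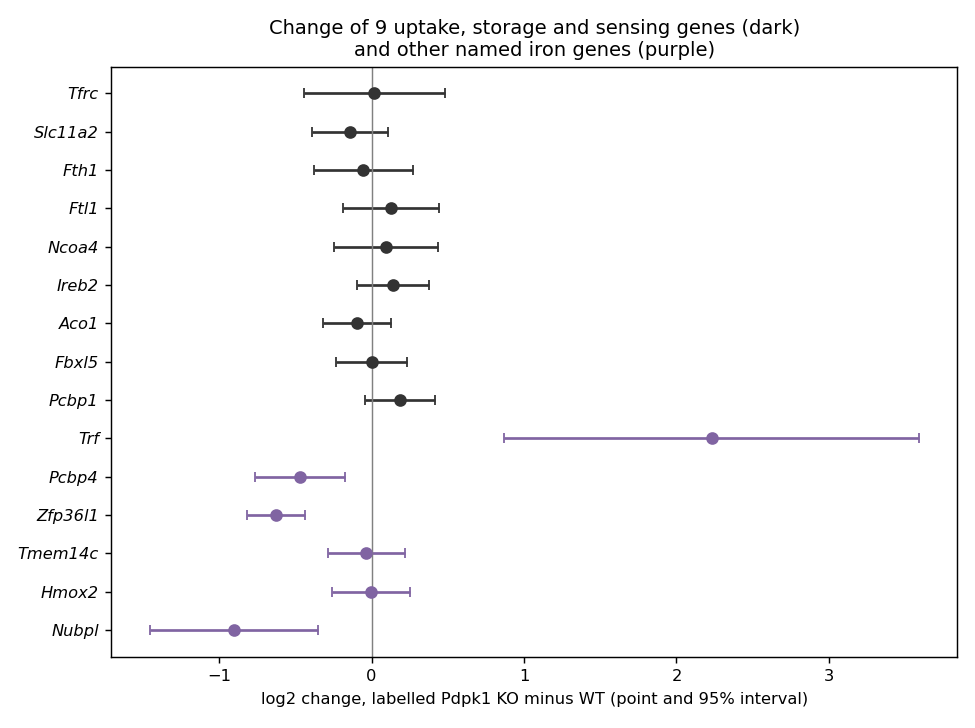
Log2 change in normalized count (labelled KO minus WT) with its 95% interval for the 9 tested uptake, storage and sensing genes (dark) and 6 other iron genes named by rule (purple). The 9 intervals all include 0 and stay within 0.5, whereas those of Trf, Pcbp4, Zfp36l1 and Nubpl do not reach 0.

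Levels were compared between genes as normalized counts per kilobase of 1 annotated transcript, averaged over all 8 libraries. Fth1 was highest at 12992 ± 2317 per kilobase (SD, n = 8), followed by Ftl1 at 7506 ± 1279 and Pcbp1 at 5457 ± 665. A wide gap separated these 3 storage genes from the rest, with Fbxl5 next at 423 ± 36.1 per kilobase. Below it came Ncoa4 at 282, Ireb2 at 255, Slc11a2 at 233, Aco1 at 215 and Tfrc at 196 per kilobase, and Steap3 was last at 2.31. The ranges of neighbours over libraries overlapped throughout that order, except between Fth1 and Ftl1, between Pcbp1 and Fbxl5 and between Tfrc and Steap3. The order depends on the length used. Per kilobase of all annotated exons of a gene, the order began with Pcbp1, then Ftl1 and then Fth1, and Steap3 was still the last.

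Of the 36 pairs among the 9 tested genes, 2 correlated in log2 level over the 8 libraries past an adjusted p of 0.05 by Pearson's r, and 1 of them also by Spearman's rho. The ferritin chains moved together, with Pearson's r of 0.919 for Fth1 and Ftl1 (exact permutation p = 0.00129, adjusted p = 0.0446) and Spearman's rho of 0.857 (exact permutation, adjusted p = 0.0643). Without WT library 1 and labelled KO library 1, the 2 farthest from the median of Fth1, r was 0.764. Fth1 and Ireb2 moved in opposite directions, with r of -0.862 (exact permutation p = 0.00248, adjusted p = 0.0446) and rho of -0.952 (exact permutation, adjusted p = 0.0411), and with r of -0.853 without the same libraries. Tfrc and Fth1 also lay in opposite directions, at r of -0.847 (exact permutation, adjusted p = 0.0932) and rho of -0.881 (exact permutation, adjusted p = 0.0643), which did not pass, and r was -0.604 without WT libraries 3 and 1. At an unadjusted p under 0.05 there were 7 pairs by Pearson's r (exact permutation). With 4 libraries, neither group gives a correlation of its own.

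A property of the libraries that no group label explains moved with these pairs. In each library the shortest 20% of tested coding genes (2279 genes) had a median deviation from their mean level over libraries of -0.15, 0.08, -0.00 and 0.08 log2 units in labelled KO libraries 1 to 4. In WT libraries 1 to 4 it was -0.11, 0.03, 0.13 and 0.09. Short genes were thus low in both libraries numbered 1, where Fth1 and Ftl1 were lowest, and highest in WT library 3, where Fth1 was highest and Ireb2 and Tfrc were lowest. The longest 20% ran the other way, between -0.06 and 0.16 in labelled KO and between -0.08 and 0.09 in WT libraries. The Fth1 and Ftl1 transcripts have 929 and 968 bases, and those of Tfrc and Ireb2 have 4890 and 5770. The classes, however, were set by the length of all annotated exons of a gene, at most 2554 or at least 7639 bases. By that length Ftl1 (1340) was a short gene and Ireb2 (9479) a long one, whereas Fth1 (3469) and Tfrc (6185) were in neither class. The part of transcript length in the pairs was not tested.

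**Figure D3:**
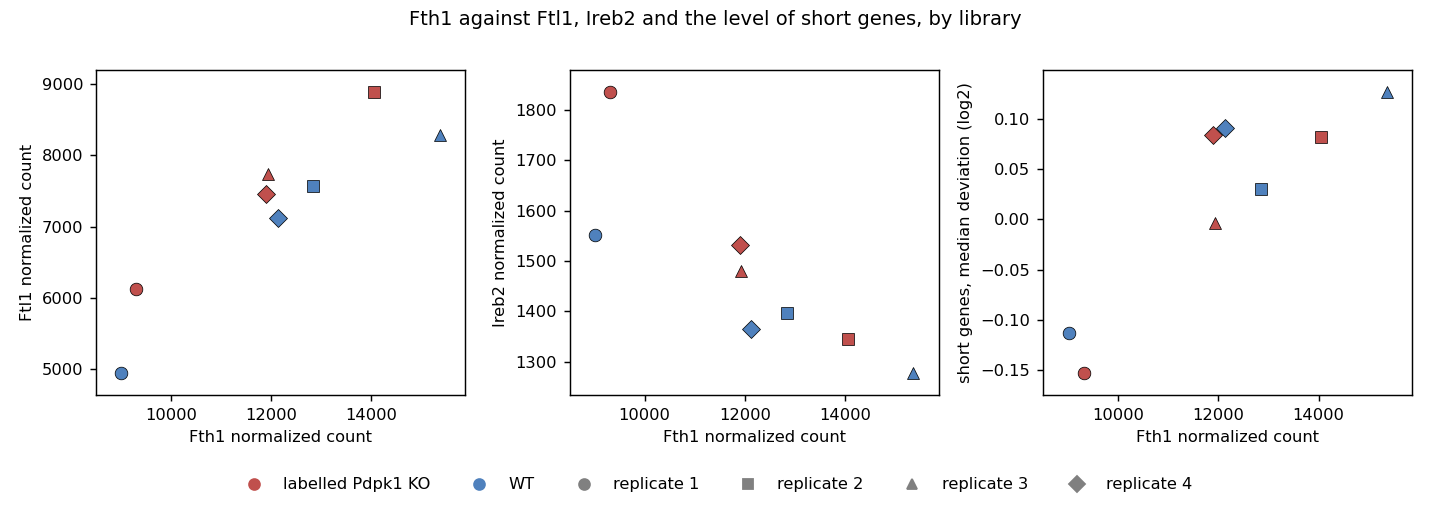
Fth1 normalized count in each of the 8 libraries (horizontal) against Ftl1 and Ireb2 normalized counts and against the median log2 deviation of the shortest 20% of coding genes, with red for labelled KO and blue for WT. Fth1 runs with Ftl1 and with the short genes and against Ireb2, and the libraries of both groups lie along the same line.

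Log2 levels over the 8 libraries were compared with those of Tfrc for 9844 tested genes. These had an established symbol and a mean normalized count of at least 50. The most like Tfrc were Ccnl2 (Pearson's r 0.963), Tia1 (0.961), Taf5 (0.959), Sugp2 (0.956) and Zfp942 (0.955). In all, 33 of the 9844 had r over 0.9 with Tfrc. None of the 5 differed between the groups past the threshold, with log2 changes of 0.05 to 0.10. These values are a description over 8 libraries that share the same depth and length differences.

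Beyond the 10 genes, 78 others of iron and heme handling stood in 4 lists, and 69 of them were tested. In labelled KO libraries 1 of the 69 was higher and 3 were lower past the threshold, and 14 had an unadjusted p under 0.05. Over all genes tested 4.41% were higher and 5.06% lower past the threshold, and 23.0% had an unadjusted p under 0.05. The median log2 change of the 69 was 0.05, against -0.01 over all genes tested.

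The list of other iron transport genes had the highest median, at 0.51 over 13 tested genes, with 1 higher and 0 lower in labelled KO libraries and 7 at an unadjusted p under 0.05 by limma, against 23.0% of all genes tested. The gene past the threshold was Trf (chr9:103204001-103230444), which encodes transferrin, the plasma carrier of iron. Trf had 81, 792, 538 and 200 normalized counts in labelled KO libraries, against 20.3, 164, 62.6 and 64.1 in WT libraries. Labelled KO libraries 2 and 3 were far above the rest, and labelled KO library 1 lay below WT library 2. Trf rose by 2.23 on the log2 scale (95% interval 0.87 to 3.59, limma adjusted p = 0.0390), and the call was lost without any 1 of labelled KO libraries 2, 3 and 4 or WT libraries 1, 3 and 4 (log2 change 1.72 to 2.41).

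Slc40a1, the only known cellular iron exporter, and Hmox1, which breaks heme down to release iron, are named after their values were seen. Slc40a1 had 72.6, 642, 412 and 183 normalized counts in labelled KO libraries, against 9.02, 269, 37.7 and 48.3 in WT libraries (log2 change 2.36, limma adjusted p = 0.0775). Hmox1 had 81, 1024, 458 and 255 in labelled KO libraries, against 72.1, 371, 127 and 79 in WT libraries (log2 change 1.29, limma adjusted p = 0.231). Neither passed the threshold, and within each group both were highest in library 2. Without labelled KO library 1 both passed, at log2 changes of 2.94 (limma adjusted p = 0.0217) and 1.93 (limma adjusted p = 0.0216), and Slc40a1 also passed without WT library 2, at 3.20 (limma adjusted p = 0.00953).

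The macrophage markers moved with Trf, Slc40a1 and Hmox1 across libraries. The mean log2 level of the 16 tested markers, Axl included, was 5.72, 7.73, 7.37 and 5.82 in labelled KO libraries 1 to 4. In WT libraries 1 to 4 it was 3.42, 6.34, 4.54 and 4.67. Labelled KO libraries 2 and 3 were the highest of their group and WT library 2 of its own, as for the 3 iron genes. With that mean as a covariate in limma, the log2 change was 0.06 for Trf (adjusted p = 0.971), -0.42 for Slc40a1 (adjusted p = 0.698) and -0.69 for Hmox1 (adjusted p = 0.519). Without the 3 libraries highest in the markers, the log2 change was 1.53 for Trf (limma adjusted p = 0.224). For Slc40a1 it was 2.12 (limma adjusted p = 0.152), near its value over all 8 libraries. Hmox1 changed by 0.67 (limma adjusted p = 0.580). The libraries left still differed in the marker mean, at 5.72 and 5.82 in labelled KO and 3.42, 4.54 and 4.67 in WT libraries. Neither fit can therefore separate the group from the markers. Spleen macrophages that recycle red cells are known for high Slc40a1 and Hmox1.

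**Figure D4:**
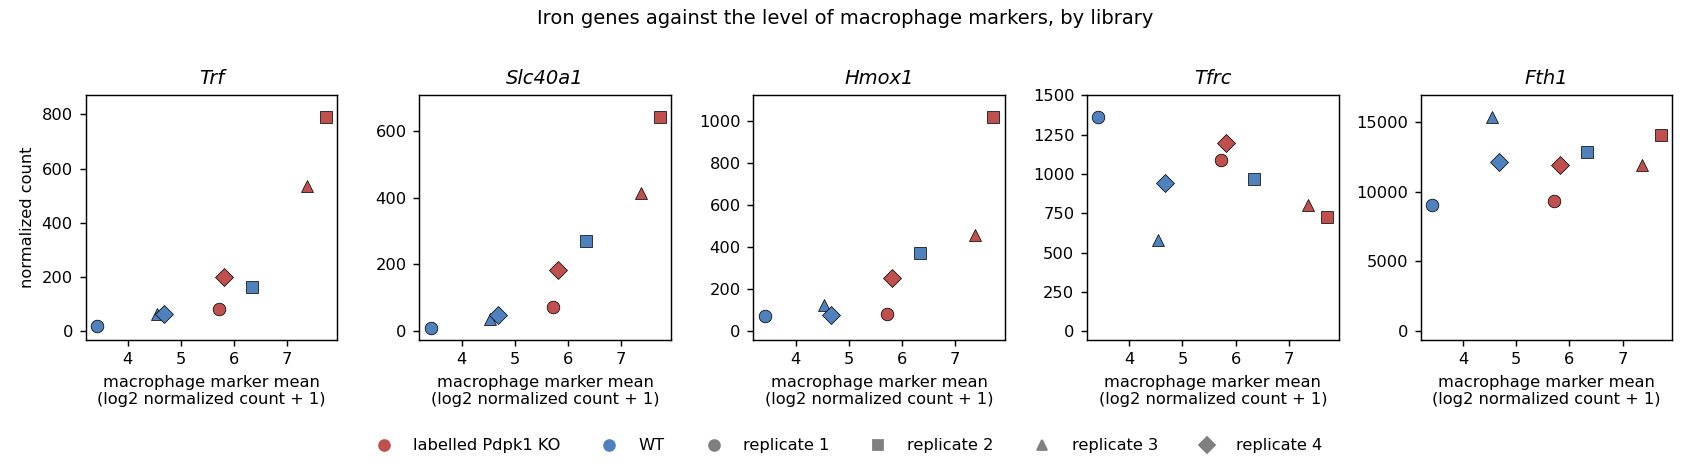
Normalized counts of Trf, Slc40a1, Hmox1, Tfrc and Fth1 in each of the 8 libraries against the mean log2 level of the 16 tested macrophage markers, with red for labelled KO and blue for WT. Trf, Slc40a1 and Hmox1 are highest in labelled KO library 2, where the markers are highest. Fth1 is highest in WT library 3 and Tfrc in WT library 1. Among the labelled KO libraries, Fth1 ranks in the order of the markers and Tfrc is lowest in library 2.

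Among 13 tested partners of storage and sensing, 0 were higher and 2 lower in labelled KO libraries, with a median log2 change of 0.09. Zfp36l1 (chr12:80107754-80113013) encodes a protein that binds AU-rich 3′ untranslated regions and promotes mRNA decay. Zfp36l1 had 5709, 5558, 5781 and 6092 normalized counts in labelled KO libraries, against 8728, 9652, 8077 and 9331 in WT libraries. Every labelled KO library was below every WT library, and Zfp36l1 fell by 0.63 on the log2 scale (limma adjusted p = 0.000325). With the macrophage marker covariate its change was -0.66 (limma adjusted p = 0.00671), and without the 3 libraries highest in the markers it was -0.56 (limma adjusted p = 0.0527).

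Pcbp4, an RNA-binding relative of Pcbp1, averaged 391 ± 35.7 normalized counts in labelled KO and 543 ± 59.5 in WT libraries (SD, n = 4 each). Its groups did not overlap and it fell by 0.47 on the log2 scale (limma adjusted p = 0.0452), close to the threshold. The call was lost without any 1 of labelled KO libraries 1, 2 and 3 or WT libraries 1, 2 and 4 (log2 change -0.48 to -0.42), with no filter or the filter in all 8 libraries, with quantile normalization, with the macrophage marker covariate (-0.40, limma adjusted p = 0.343) and without the 3 libraries highest in the markers (-0.36, limma adjusted p = 0.431).

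Heme synthesis and breakdown had 0 of 15 tested genes past the threshold by limma, with 2 at an unadjusted p under 0.05 and a median log2 change of -0.20. On the recovered reads edgeR and DESeq2 each called 1 of them lower in labelled KO libraries. Its highest genes were Tmem14c, a mitochondrial carrier of heme precursors, and Hmox2, the constitutive heme oxygenase. Tmem14c averaged 1488 ± 174 in labelled KO and 1526 ± 187 in WT libraries, and Hmox2 1021 ± 132 in labelled KO and 1021 ± 89.4 in WT libraries (normalized counts, SD, n = 4 each). Neither differed past the threshold, at limma adjusted p of 0.902 and 0.988.

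Iron-sulfur cluster assembly had 28 tested genes, of which 0 were higher and 1 lower in labelled KO libraries, with a median log2 change of 0.05. The gene that fell was Nubpl, an assembly factor for mitochondrial complex I. Nubpl had 71.7, 63.6, 79.7 and 92.2 normalized counts in labelled KO libraries, against 109, 154, 172 and 145 in WT libraries. The groups did not overlap, and Nubpl fell by 0.90 on the log2 scale (limma adjusted p = 0.0381). The call was lost without any 1 of labelled KO libraries 1, 2 and 3 or WT libraries 2, 3 and 4 (log2 change -0.93 to -0.82), with no filter, with quantile normalization, with the macrophage marker covariate (-0.97, limma adjusted p = 0.196) and without the 3 libraries highest in the markers (-0.77, limma adjusted p = 0.324).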

How the data were processed

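The deposited signal values are read counts of genes, scaled in each library by 1 factor, which the authors' title for the table calls DESeq2 normalization. Named without roles, per the submitters' processing notes, are GRCm38, DESeq2 1.21, Subread 2.0.1, featureCounts, STAR 2.7.6a, SAMtools 1.11 and Trimmomatic 0.39. Strand setting and annotation are not given in the sources used here. Dividing by the smallest value above 0 of its library made 100% of values whole within 0.001, so reads were recovered as whole counts. Ensembl IDs were matched to GENCODE M21 on GRCm38, and 19785 of 19826 had a symbol.

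Values were compared as log2(normalized count + 1), pseudocount 1, with limma 3.58.1 in R 4.3.3 (lmFit, eBayes with trend, two-sided), with no covariate. Alternatives were edgeR 4.0.16 and DESeq2 1.42.0 on recovered reads, which called 1254 and 1756 of the 13847 genes against 1311 by limma, other pseudocounts, filters and scalings, each library left out, a replicate block, and macrophage markers as a covariate or a reason to leave out 3 libraries. The scripts were tested on simulated counts. Pairs of genes were tested by exact two-sided permutation over libraries, adjusted over 36 pairs.

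The 10 genes, the lists and the tests were chosen with earlier results of these data known. From each list the genes past the threshold were named, at most 4 by smallest adjusted p, or, if none passed, the 2 of highest mean level, with Pdpk1 and Foxp3 as checks and the 5 genes most like Tfrc. Myc, Slc40a1 and Hmox1 are exceptions, and 1 gene of the lists is not reported here. Fam96a and Fam96b were looked up under their present symbols Ciao2a and Ciao2b. Intervals of log2 changes carry the spread between libraries, whereas the floors for a count of 0 cover counting error only, since the values carry no molecular identifiers.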

Additional observations from a re-analysis of the deposited data

Results flagged for a closer look

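Of 38 groups of 4 libraries checked, 1 for each gene and group, 2 held a library that stood apart from the other 3 by more than Dixon's 95% critical value, as a share of the group's range. Chance marks about 1 in 20 such groups. Aco1 had 929.8 normalized counts in WT library 3, with a gap of 0.890 of the WT range. Pcbp4 had 453.9 normalized counts in WT library 3, below the other WT libraries, with a gap of 0.893 of the WT range. Without WT library 3 the log2 change of Aco1 was -0.05 and that of Pcbp4 -0.55. The 38 groups do not cover every gene named above. Slc40a1 was not among the genes checked, so the lack of a mark says nothing about it. It had 269 normalized counts in WT library 2, against 9.02, 37.7 and 48.3 in WT libraries 1, 3 and 4.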

How the results depend on the processing

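Over 19 alternatives for each of the 9 tested genes (171 values), 0 passed the threshold, the smallest adjusted p was 0.0625 (Pcbp1 with the replicate block, limma), and log2 changes ran between -0.36 and 0.41. Of these, 152 kept the sign and 19 did not. The sign turned for Tfrc by edgeR (-0.009), DESeq2 (-0.012) and upper quartile scaling (-0.012), for Ftl1 (-0.220) and Fbxl5 (0.088) with the macrophage marker covariate, for Fbxl5 without the 3 libraries highest in the markers (0.085), for Hmox2 by edgeR (0.002) and DESeq2 (0.002), and with the covariate for Slc40a1 (-0.419) and Hmox1 (-0.693). Leaving out each library in turn gave -0.205 to 0.205 for Tfrc, -0.197 to 0.060 for Fth1, -0.031 to 0.222 for Ftl1, -0.007 to 0.221 for Ncoa4, -0.088 to 0.043 for Fbxl5, -0.125 to 0.030 for Tmem14c, -0.056 to 0.083 for Hmox2 and -0.009 to 0.166 for Foxp3. The causes were not tested. Among all genes, 611 were higher and 700 lower in labelled KO libraries, against 221 and 300 with the covariate, 167 and 305 without the 3 libraries (5 remain), and 389 to 588 and 495 to 724 leaving out each library, the lowest without WT library 4 (389 higher) and labelled KO library 3 (395 higher). Of the 69 other iron genes 1 was higher and 3 lower, against 3 higher and 4 lower by DESeq2, 1 and 1 with no filter, 2 and 3 with the filter in all 8 libraries, 2 and 1 with quantile normalization, 0 and 1 with the covariate, 0 and 0 without the 3 libraries, and 0 to 4 and 1 to 3 leaving out each library. Deviations from the group means of labelled KO and WT libraries that share a replicate number correlated at 0.217, 0.092, 0.048 and 0.113, not all over 0.1, and only libraries 1 and 4 matched their own number best, so the numbers were not taken as pairs. With the replicate block, 1243 genes were higher and 1292 lower, and 8 and 4 of the 69. The block also brought Slc40a1 (limma adjusted p = 8.87e-05) and Hmox1 (limma adjusted p = 0.00144) past the threshold, with log2 changes as without it (2.36 and 1.29). Of the 15 heme genes, 1 was lower by edgeR, DESeq2, pseudocount 5, the filter in all 8 libraries, upper quartile scaling, the block and without WT library 4, and 1 was higher with the block and without labelled KO library 1. Quantile normalization moved the median log2 change of all genes by 0.02 and upper quartile scaling by -0.03. Depth limits Steap3, and counts of polyadenylated RNA hold no measure of protein or translation.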
